A study of Mus musculus with 12 samples.

Results

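The genes described here are Foxc1 and 7 other members of the forkhead family in hair follicle stem cells of the mouse: Foxc2, Foxp1, Foxo1, Foxo3, Foxn1, Foxq1 and Foxi3. They were chosen by name, for their known roles in hair follicles or their kinship to Foxc1, and with earlier results of these data known. They make up 8 of 23492 gene symbols in the deposited tables and 8 of the 43 forkhead symbols found there. All 8 have a row of their own in every table.

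Messenger RNA was sequenced from 12 libraries of stem cells sorted from dorsal back skin by flow cytometry, and Foxc1 was the gene deleted. Anagen is the growing phase and telogen the resting phase of the hair cycle. The anagen iKO group held 2 FOXC1-Sox9CreER-iKO males, and the anagen Het group 2 FOXC1-Sox9CreER-heterozygous males, all at postnatal day 30 and of a Black Swiss/ C57BL/6 mix. Sox9CreER is a Cre recombinase that acts once tamoxifen is given, and the labels state that Sox9CreER mice were injected with it, which also switched on a YFP reporter. The Het mice may therefore differ from wild type in Foxc1 dose. The second telogen iKO group held 2 males with the same driver, tamoxifen and strain mix at postnatal day 60. The second telogen cKO group held 1 male at day 42 and 1 female at day 46 in which K14Cre, a driver of the basal epidermis and hair follicle epithelium that needs no drug, removed Foxc1. The second telogen WT group matched the cKO group in sex, age and its Black Swiss strain, but it is no matched control of the iKO group, from which it differs in age, strain, driver, tamoxifen and sex. A further pair of groups of Agouti mice had 1 library each, from a Shh-Het female in anagen substage II at about day 26 and a Shh-Het female in first telogen at about day 23, although their titles call them WT.

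Forkhead proteins bind DNA through a shared winged-helix domain, and many recognise sites built around the letters TAAACA. FOXC1 is made by hair follicle stem cells and has been tied to their return to quiescence, FOXP1 has been tied to the resting state of these cells, and FOXO1 and FOXO3 switch on stress-resistance and cell cycle arrest genes unless AKT, a kinase downstream of insulin and growth factor receptors, drives them out of the nucleus. FOXN1 is the nude locus factor of hair keratinocytes and thymus, FOXQ1 is the satin locus factor of the hair medulla, FOXI3 acts in hair placodes and early hair growth, and FOXC2 is a close relative of FOXC1 best known from lymphatic vessels and mesenchyme.

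The values are FPKM, fragments per kilobase of transcript scaled to the size of the library, which can be compared between genes because they are scaled by length. A group's values differ slightly between the authors' 2-group tables and their joint table of all 7 groups. Foxc1 in anagen Het cells, for one, has 23.9 FPKM in the first and 22.5 FPKM in the second. The scaling settings are not given. The authors deposited 1 pooled FPKM per group, so no spread between libraries, no SD and no depth can be given, and every fold change, p and q below comes from the authors' deposited tables. A gene was called where the deposited q was below 0.05. Counts for anagen iKO against Het and for cKO against WT cells come from the 2-group tables, and all other counts from the joint table. There q was adjusted over all pairs, so calls in the joint and 2-group tables are not equally strict. The approximate SE of a log2 fold is that fold divided by the deposited statistic. The libraries came from separate mice, but with 2 at most in a group. Markers of the bulge, where these stem cells sit, were present in all 7 groups: Cd34 lay between 129 and 883 FPKM, Lgr5 between 54.2 and 102 FPKM, Sox9 between 59.5 and 132 FPKM and Lhx2 between 149 and 257 FPKM. Krt15 and Krt5 were listed at 0 in several groups with a status showing that the estimate had failed. The first telogen library stood apart, with 93.1% of symbols above 0 against 74.0 to 76.1% in the other 6 groups, and markers of fibroblasts were high in both Shh-Het libraries. Their 20 genes summed to 1319 FPKM in anagen II and 2576 FPKM in first telogen cells, against 165 to 332 FPKM in the other 5 groups. In bulk samples fewer cells of a type and less RNA per cell cannot be told apart.

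Foxc1 itself (XLOC_005118, mm9 chr13:31898515-31902504) was the most abundant forkhead transcript of second telogen WT, anagen Het and first telogen cells, and ranked 13 or 14 of 43 in the knockouts. In the joint table, which holds all 7 groups, it stood at 3.17 FPKM in second telogen iKO and 1.66 FPKM in second telogen cKO cells, against 27.5 FPKM in second telogen WT cells. It stood at 1.32 FPKM in anagen iKO cells against 22.5 FPKM in anagen Het cells. The Shh-Het libraries held 22.1 FPKM in anagen II and 42.6 FPKM in first telogen. Every knockout group was thus well below every group with an intact or heterozygous gene.

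In the 2-group tables, Foxc1 had 1.40 FPKM in anagen iKO cells and 23.9 FPKM in anagen Het cells, and the log2 fold in the authors' deposited table was -4.09 (SE 0.303, q = 0.00106). It had 1.59 FPKM in cKO cells and 26.5 FPKM in WT cells, with a log2 fold of -4.06 (SE 0.379, q = 0.00159) in the authors' deposited table. The remaining transcript was 5.87% of the Het level in anagen iKO cells, 6.01% of the WT level in cKO cells and 11.5% of the WT level in second telogen iKO cells. In second telogen, Foxc1 was 1.91-fold higher in iKO than in cKO cells in the authors' deposited table (q = 0.00980). The deleted part of the gene is not stated in the labels, so reads from undeleted parts and from cells that kept the gene cannot be told apart. Between the control groups Foxc1 was not called, at 27.5 FPKM in second telogen WT and 22.5 FPKM in anagen Het cells, with a log2 fold of 0.29 and a 95% interval of -0.21 to 0.78 from the authors' deposited table. Of neighbours in the order of levels, the steps between anagen Het and second telogen iKO and between second telogen iKO and cKO were called, and that between cKO and anagen iKO was not (q = 0.499 in the authors' deposited table).

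**Figure D1:**
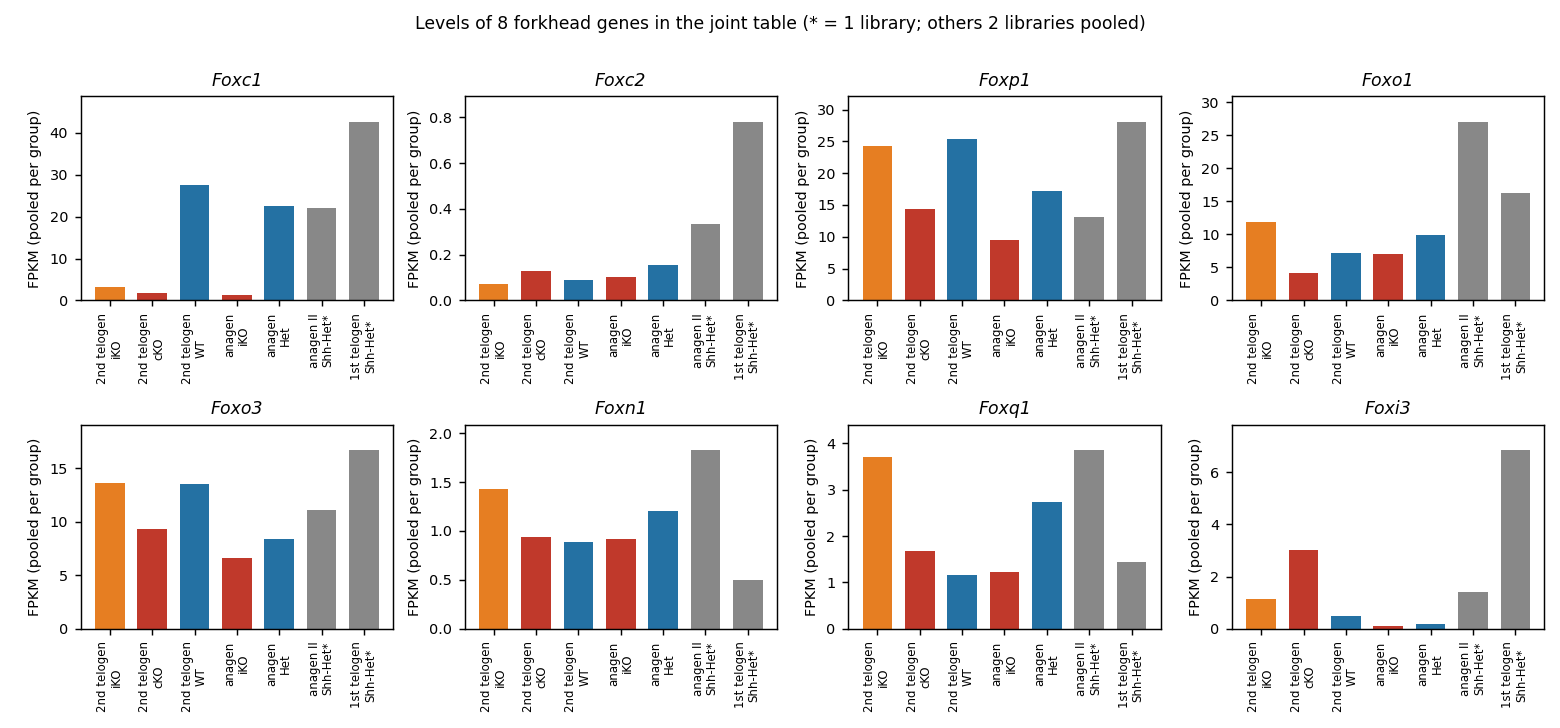
Pooled FPKM of the 8 forkhead genes in the 7 groups of the joint table, each panel on its own linear axis from 0, with 1 bar per group and no error bars because the authors deposited 1 value per group. Foxc1 is low in the 3 knockout groups (1.32 to 3.17 FPKM), Foxp1 is 9.46 FPKM in anagen iKO, 14.4 FPKM in second telogen cKO and 13.1 FPKM in anagen II cells and higher in the other 4 groups, and Foxi3 is highest in the first telogen library at 6.84 FPKM.

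Foxc2 (XLOC_020681, mm9 chr8:123640071-123642794), the nearest relative of Foxc1, was close to absent. Its level was 0.0706 FPKM in second telogen iKO, 0.128 FPKM in second telogen cKO and 0.0903 FPKM in second telogen WT cells. It was 0.104 FPKM in anagen iKO and 0.154 FPKM in anagen Het cells. No knockout group was above 0.128 FPKM, so no rise of Foxc2 to the level of the lost Foxc1 was seen in these pooled values. The authors' tables gave it no test in any of the 10 pairs of the 5 groups with 2 libraries. It was higher in the Shh-Het libraries, at 0.335 FPKM in anagen II and 0.780 FPKM in first telogen, and the fibroblast markers given above were high in the same libraries. Their part in the Foxc2 level was not tested.

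Foxp1 (XLOC_017723, mm9 chr6:98875336-99385339) is a transcriptional repressor of the FOXP subfamily. It fell in anagen iKO and in second telogen cKO cells by nearly the same amount, and was at the WT level in second telogen iKO cells. In the anagen table it had 10.03 FPKM in iKO cells and 18.2 FPKM in Het cells, 1.81-fold lower in the authors' deposited table (log2 fold -0.86, SE 0.253, q = 0.00106). In the telogen table it had 13.8 FPKM in cKO and 24.4 FPKM in WT cells, 1.77-fold lower in the authors' deposited table (log2 fold -0.82, SE 0.347, q = 0.0163). The knockout effect in telogen minus that in anagen was 0.04 on the log2 scale, with an SE of 0.430, so a difference of up to about the size of the effects themselves could not be told from none. Driver, tamoxifen, control genotype, strain, age and sex change along with phase in that difference and cannot be told apart from it.

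No such fall was seen when second telogen iKO cells were set against WT cells, which are no matched control. Age, strain, driver, tamoxifen and sex differ there along with Foxc1 and cannot be told apart from its loss. Foxp1 stood at 24.2 FPKM in second telogen iKO cells against 25.4 FPKM in second telogen WT cells, a log2 fold of -0.07 with a 95% interval of -0.64 to 0.51 in the authors' deposited table (q = 0.862). Set directly against each other, iKO cells were 1.68-fold higher than cKO cells in second telogen in the authors' deposited table (q = 0.00190). The iKO and cKO groups differ in driver, tamoxifen, age, strain and sex as well, and their parts in this difference cannot be told apart. The order of the 5 groups with 2 libraries ran from second telogen WT and iKO through anagen Het at 17.1 FPKM and cKO at 14.4 FPKM to anagen iKO at 9.46 FPKM. Of neighbours in that order, the last pair alone was called (anagen iKO below cKO, q = 0.0124 in the authors' deposited table), in a contrast where 28.3% of all genes were called and 15.2% were lower. Second telogen WT cells were 1.48-fold above anagen Het cells in the authors' deposited table (q = 0.0264), although the interval from the approximate SE ran from -0.00 to 1.13 on the log2 scale. In the Shh-Het pair, Foxp1 stood at 13.1 FPKM in anagen II and 28.1 FPKM in first telogen, 2.15-fold lower in anagen II with 1 library each and no test.

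Since Foxp1 moved with Foxc1 in anagen iKO and cKO cells, its promoters were searched for the forkhead core TAAACA and its reverse complement TGTTTA, and for the longer GTAAACA and its complement TGTTTAC, of which the core is a part. RefSeq promoter windows, in build GRCm38.p6 and read on the gene's strand, were found for 6 of the 8 genes, 8 windows in all, and the 250 bases before each start were used. Foxc2 and Foxq1 had no entry. The core occurred in all 3 Foxp1 windows and in none of the 5 windows of Foxc1, Foxo1, Foxo3, Foxn1 and Foxi3. Among 32536 promoter windows of the same length, 12.02% held it. GTAAACA was in none of the 8 windows and in 3.17% of all windows. The Foxp1 matches began 91 bases before the start at start 1, 77 and 16 bases before it at start 2, and 55 bases before it at start 3. A match is a description of letters, and binding was not measured here. Foxp1 was searched because of its values, and Foxo1, which also fell in cKO cells, had no match. Foxq1, which fell in anagen iKO cells, had no window. Of the 250 bases at Foxp1 start 1, 169 lay in annotated Foxp1 exons, against 17 at start 2 and 15 at start 3. Most of the first window is thus annotated as transcribed. For Foxn1, the bases after the start were not found in an annotated transcript of the gene, so that start is less certain. The stretch around the first match and the windows of starts 2 and 3 are printed below, with every match in capitals, followed by the Foxc1 window, which has none.
Foxp1 start 1, chr6:99521067-99521096, minus strand: ctaaggactaaaTAAACAgttgtaactcca
Foxp1 start 2, chr6:99266516-99266765, minus strand: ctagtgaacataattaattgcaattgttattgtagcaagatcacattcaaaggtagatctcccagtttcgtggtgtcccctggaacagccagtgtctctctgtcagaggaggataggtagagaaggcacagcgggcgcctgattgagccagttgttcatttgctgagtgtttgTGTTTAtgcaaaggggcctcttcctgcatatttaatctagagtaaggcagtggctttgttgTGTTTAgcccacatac
Foxp1 start 3, chr6:99028299-99028548, minus strand: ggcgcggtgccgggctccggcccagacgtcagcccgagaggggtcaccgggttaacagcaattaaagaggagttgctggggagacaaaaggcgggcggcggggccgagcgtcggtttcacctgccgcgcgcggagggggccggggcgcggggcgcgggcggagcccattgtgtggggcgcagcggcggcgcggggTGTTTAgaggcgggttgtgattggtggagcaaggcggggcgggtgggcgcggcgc
Foxc1 start, chr13:31806396-31806645, plus strand: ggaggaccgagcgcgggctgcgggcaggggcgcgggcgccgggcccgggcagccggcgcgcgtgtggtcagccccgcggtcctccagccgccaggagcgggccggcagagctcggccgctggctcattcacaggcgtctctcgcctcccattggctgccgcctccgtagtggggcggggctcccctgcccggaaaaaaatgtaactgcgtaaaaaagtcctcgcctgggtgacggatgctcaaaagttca

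Foxo1 (XLOC_012947, mm9 chr3:52072259-52154031), the FOXO factor of insulin signalling, was lower than WT in one second telogen knockout and higher in the other. It stood at 11.9 FPKM in second telogen iKO and 4.11 FPKM in second telogen cKO cells, against 7.19 FPKM in second telogen WT cells. In the telogen table the cKO value was 3.94 FPKM and the WT value 6.92 FPKM, and Foxo1 fell by 0.81 on the log2 scale in the authors' deposited table (SE 0.331, q = 0.0295). Against the same WT libraries the iKO cells were 1.65-fold higher in the authors' deposited table (log2 fold 0.72, SE 0.267, q = 0.00546). These contrasts share their controls, and the direct one between the knockouts put iKO cells 2.89-fold above cKO cells in the authors' deposited table (log2 fold 1.53, SE 0.280, q = 0.000444). Driver, tamoxifen, age, strain and sex differ between the knockout groups and cannot be told apart. In anagen it had 7.50 FPKM in iKO and 10.5 FPKM in Het cells and was not called, with a log2 fold of -0.48 and a 95% interval of -0.96 to -0.00 in the authors' deposited table (q = 0.0852). In the order second telogen iKO, anagen Het, second telogen WT, anagen iKO and cKO, the last step was the only one between neighbours that was called (q = 0.00316 in the authors' deposited table). The highest level, 27.0 FPKM, was in the anagen II library, against 16.3 FPKM in first telogen.

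Foxo3 (XLOC_001998, mm9 chr10:41905592-41996548), the FOXO factor linked to stem cell quiescence in several tissues, varied least of the 8 genes, 2.51-fold from the lowest to the highest group. Its joint-table level was 13.6 FPKM in second telogen iKO and 9.33 FPKM in second telogen cKO cells, against 13.5 FPKM in second telogen WT cells. It was 6.66 FPKM in anagen iKO cells and 8.36 FPKM in anagen Het cells. All 3 second telogen values were above both of the anagen values, and second telogen WT cells were 1.62-fold above anagen Het cells in the authors' deposited table (log2 fold 0.69, SE 0.278, q = 0.00834). The anagen knockout effect was not called, with a log2 fold of -0.33 and an interval of -0.86 to 0.21 in the authors' deposited table (q = 0.405). In the telogen table the cKO effect was -0.54 on the log2 scale (q = 0.274) and was not called, while the authors' deposited joint table gave -0.53 and q = 0.0478. The Shh-Het libraries held 11.1 FPKM in anagen II and 16.7 FPKM in first telogen.

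Foxq1 (XLOC_005116, mm9 chr13:31650039-31652843) lies 245.671 kb before Foxc1 on the same chromosome, with Foxf2 between them. It had 1.31 FPKM in anagen iKO cells and 2.91 FPKM in anagen Het cells, and fell by 1.15 on the log2 scale in the authors' deposited table (SE 0.367, q = 0.00507). In the telogen table it had 1.60 FPKM in cKO and 1.11 FPKM in WT cells and was not called (log2 fold 0.53, q = 0.715 in the authors' deposited table). The second telogen iKO cells reached 3.70 FPKM against 1.15 FPKM in WT cells, 3.21-fold higher in the authors' deposited table (log2 fold 1.68, SE 0.378, q = 0.000444). Foxq1 was thus lower in anagen iKO than in Het cells and higher in second telogen iKO than in WT cells, and in the second of these contrasts age, strain, driver, tamoxifen and sex differ besides Foxc1 and cannot be told apart. It was also 2.22-fold higher in iKO than in cKO cells of second telogen in the authors' deposited table (q = 0.00463). Among controls it ran the other way, at 1.15 FPKM in second telogen WT and 2.74 FPKM in anagen Het cells, 2.39-fold lower in the authors' deposited table (q = 0.00463). No neighbours in the order of the 5 groups with 2 libraries were called, the nearest being anagen Het above cKO (q = 0.0987 in the authors' deposited table). Foxf2, the gene between Foxq1 and Foxc1, stayed at or below 0.0914 FPKM in all 5 groups with 2 libraries.

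Markers of the hair shaft and its root sheaths moved beside Foxq1 in anagen. Of 26 such genes tested, 12 fell and none rose in anagen iKO cells, where 5.08% of all genes fell, among them the hair keratin gene Krt33b, 10.9-fold lower in the authors' deposited table. Krt33b had only 0.461 FPKM in iKO cells against 5.02 FPKM in Het cells, and with a pseudocount of 1 its log2 fold was -2.04. The summed level of the 26 genes was 420 FPKM in anagen iKO and 515 FPKM in anagen Het cells. Without Krt79, a keratin of the upper hair canal, it was 315 FPKM in iKO and 434 FPKM in Het cells. In second telogen 2 rose and 1 fell of 14 in iKO against WT cells, where 12.9% of all genes were called, with sums of 302 FPKM in iKO and 141 FPKM in WT cells and 3 of 26 listed at 0 in each. Krt79 rose 4.05-fold there in the authors' deposited table, and without it the sums were 85.7 FPKM in iKO and 87.7 FPKM in WT cells. The part of these cells in the Foxq1 values was not tested.

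Foxi3 (XLOC_016987, mm9 chr6:70906600-70911060) was nearly silent in the anagen iKO and Het groups and highest among knockouts in second telogen cKO cells. The anagen table gave 0.110 FPKM in iKO and 0.186 FPKM in Het cells and no test. In the telogen table Foxi3 had 2.91 FPKM in cKO cells and 0.487 FPKM in WT cells, and rose 5.98-fold in the authors' deposited table (log2 fold 2.58, SE 0.657, q = 0.0200). The second telogen iKO cells were between them at 1.14 FPKM, against 0.505 FPKM in WT cells in the joint table, and were not called (log2 fold 1.17, interval -0.01 to 2.36, q = 0.125 in the authors' deposited table). They were 2.66-fold below cKO cells in the authors' deposited table (q = 0.0126). Of 14 hair shaft and sheath markers tested in cKO against WT cells, 4 rose and 1 fell, where 3.75% of all genes rose and 2.87% fell. Krt79 rose 4.24-fold, Lef1, a WNT effector of hair matrix and placode, 4.03-fold and the hair keratin gene Krt32 2.29-fold, while the shaft regulator Dlx3 was 1.97-fold lower, all in the authors' deposited table. The summed marker level was 317 FPKM in cKO and 136 FPKM in WT cells, and without Krt79 it was 99.7 FPKM in cKO and 84.4 FPKM in WT cells. Whether the makeup of the sorted cells plays a part in the Foxi3 value was not tested. Foxi3 was 1.40 FPKM in anagen II and 6.84 FPKM in first telogen, where the fibroblast markers were also highest.

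Foxn1 (XLOC_003729, mm9 chr11:78171079-78200110) stayed between 0.502 and 1.83 FPKM in all groups. It had 0.968 FPKM in anagen iKO and 1.27 FPKM in anagen Het cells (q = 0.576 in the authors' deposited table), and 0.905 FPKM in cKO and 0.849 FPKM in WT cells (q = 0.990 in the authors' deposited table). By the authors' Cuffdiff test it was called in 0 of the 10 pairs among groups with 2 libraries, with an unadjusted p below 0.05 in 1, second telogen iKO against WT cells. Its interval in anagen ran from -1.33 to 0.54 on the log2 scale, so a fall of more than 2-fold lay within the error. The 1.83 FPKM of the anagen II library was 3.64-fold above the 0.502 FPKM of first telogen, with 1 library each.

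**Figure D2:**
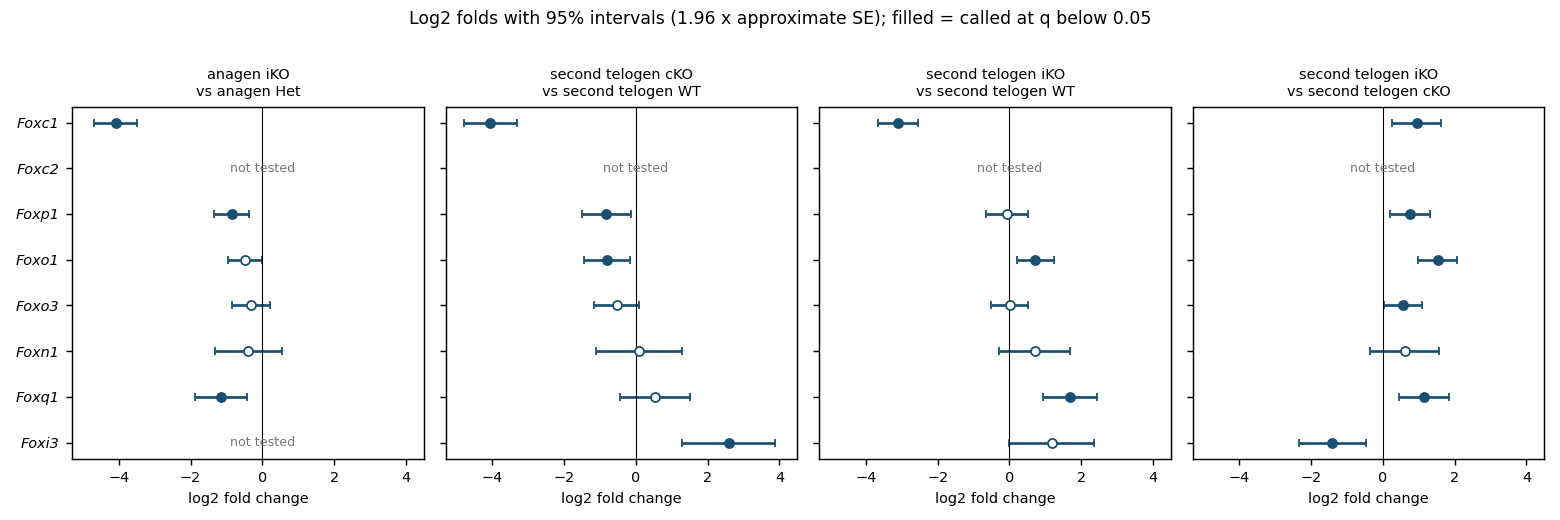
Log2 fold changes of the 8 forkhead genes in 4 comparisons, on a common horizontal axis, with 95% intervals from the approximate SE; filled points were called at a deposited q below 0.05 and open points were not. Foxc1 is far below 0 in all 3 contrasts with controls, Foxp1 is below 0 in the first and second panels, and Foxo1 is below 0 in cKO against WT but above 0 in iKO against WT.

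Counted over the genes, 3 of the 6 tested fell in anagen iKO against Het cells and none rose, where 10.3% of all 13713 tested genes were called, 5.08% lower. In cKO against WT cells 4 of 7 were called, 3 lower and 1 higher, where 6.62% of all genes were called, 2.87% lower and 3.75% higher. In second telogen iKO against WT cells 3 of 7 were called, 1 lower and 2 higher, where 12.9% of all genes were called, 5.89% lower and 7.02% higher. Foxc1, the deleted gene, is among the called in each. Because the genes were chosen with earlier results of these data known, counts here and between the phases do not test them against all genes. The median log2 ratio with a pseudocount of 1 was -0.60 for the tested genes in anagen and -0.49 in cKO against WT cells, beside -0.02 and 0.00 for all genes. It was 0.37 in second telogen iKO against WT cells, beside -0.02 for all genes. In second telogen iKO against cKO cells 6 of 7 were called, 5 higher and 1 lower, with 14.9% of all genes called, 7.54% higher and 7.35% lower.

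The same genes were compared between the phases. In second telogen iKO against anagen iKO cells 6 of 7 were called and all were higher, where 33.2% of all genes were called and 17.7% were higher. The folds in the authors' deposited table were 10.9 for Foxi3, 3.001 for Foxq1, 2.56 for Foxp1, 2.40 for Foxc1, 2.05 for Foxo3 and 1.68 for Foxo1. The Foxi3 fold rests on 1.14 FPKM against a nearly absent 0.104 FPKM (log2 SE 0.927, q = 0.0354 in the authors' deposited table). With at least 1 FPKM required in both groups, 5 genes were called. In second telogen WT against anagen Het cells 3 of 7 were called, with Foxo3 and Foxp1 higher and Foxq1 lower, where 25.4% of all genes were called. Age differs along with phase in the first of these contrasts, and age, strain, driver, tamoxifen, Foxc1 dose and sex in the second, and they cannot be told apart. The difference of these counts was not tested.

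The knockout effect in telogen (cKO against WT) minus that in anagen (iKO against Het) was tested for the 6 genes tested in both tables, with a z test from the approximate SEs and Benjamini-Hochberg adjustment over all 13031 genes. Foxi3, which had no test in anagen, and Foxc2, which had none in either table, were left out. Driver, tamoxifen, control genotype, strain, age and sex change along with phase in this difference and cannot be told apart from it. None of the 6 was called, and 0.990% of all genes were. At an unadjusted p below 0.05 there was 1, Foxq1, with a difference of 1.69 on the log2 scale (SE 0.616), which did not pass after adjustment. For Foxc1 the difference was 0.03 (SE 0.485).

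The Shh-Het pair compares anagen II with first telogen in 1 library each, so it has values and no test. Of 7 forkhead genes with at least 1 FPKM in one of the libraries, Foxn1 and Foxq1 were at least 2-fold higher in anagen II and Foxi3 and Foxp1 at least 2-fold lower. Past the same 2-fold limit, 30.6% of all genes differed, 10.4% higher and 20.1% lower. Foxc1 was 1.93-fold lower and Foxo1 1.66-fold higher in anagen II. The first telogen library listed 43 of 43 forkhead genes above 0, against 30 to 34 in the other groups. The 25 forkhead genes outside the 8 that stayed below 1 FPKM in all 5 groups with 2 libraries had a median of 0.320 FPKM there, against 0 to 0.0148 FPKM elsewhere. Foxc2, at 0.780 FPKM there, was within the range of these genes.

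**Figure D3:**
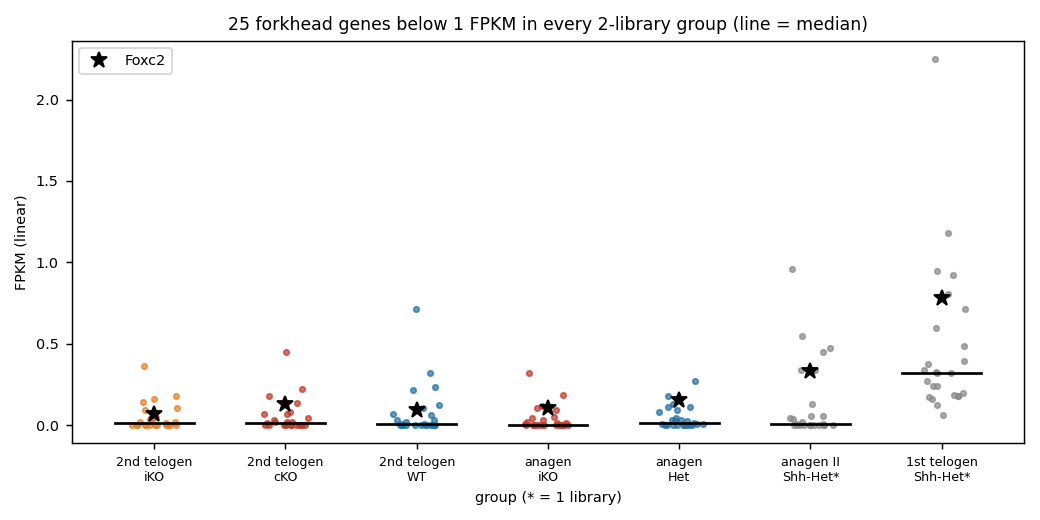
FPKM on a linear axis for 25 forkhead genes that were below 1 FPKM in every group with 2 libraries, 1 point per gene and group, with the median as a line and Foxc2 as a star. The first telogen library lies above the others, with a median of 0.320 FPKM, and Foxc2 is at 0.780 FPKM there.

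Of the other 35 forkhead symbols, 11 could be tested in anagen and 10 in cKO against WT cells, and 1 was called in each, shares near the 10.3% and 6.62% of all genes called in these contrasts. Foxo6, a FOXO factor that is less subject to nuclear exclusion, had 1.15 FPKM in anagen iKO and 2.47 FPKM in anagen Het cells and was 2.15-fold lower in the authors' deposited table (q = 0.0186). Foxp4, a close relative of Foxp1, had 9.67 FPKM in cKO and 16.1 FPKM in WT cells and was 1.66-fold lower in the authors' deposited table (q = 0.0418). None of 11 was called in second telogen iKO against WT cells by the authors' Cuffdiff test, and 1 had an unadjusted p below 0.05. The median log2 ratio of the tested genes was -0.18 in anagen and -0.17 in cKO against WT cells, beside -0.02 and 0.00 for all genes.

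Of the other forkhead genes, 4 rose and 1 fell of 11 tested in second telogen iKO against anagen iKO cells, where 33.2% of all genes were called. In second telogen WT against anagen Het cells 4 rose and 2 fell of 12, where 25.4% of all genes were called. Foxe1, a factor needed for hair follicle orientation and thyroid development, had 0.0249 FPKM in second telogen iKO cells and was listed at 0 in second telogen cKO and WT cells. It had 3.17 FPKM in anagen iKO, 4.71 FPKM in anagen Het and 60.6 FPKM in anagen II cells. Foxo6 also peaked in the anagen II library, at 30.4 FPKM, against 2.71 FPKM in first telogen. Foxn3, a checkpoint repressor, was higher in second telogen than in anagen, 2.61-fold in iKO cells and 1.70-fold in WT against Het cells in the authors' deposited table. Foxk2 went the other way in iKO cells, 1.90-fold lower in second telogen in the authors' deposited table, while its relative Foxk1 was 1.57-fold higher and Foxo4 1.44-fold higher. Within second telogen, Foxn2 had 11.7 FPKM in second telogen iKO and 8.05 FPKM in cKO cells and was 1.45-fold higher in the authors' deposited table.

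Foxj2 was 2.44-fold higher in second telogen iKO than in anagen iKO cells and 1.91-fold higher in second telogen WT than in anagen Het cells in the authors' deposited table (q = 0.000444 in both). It stood at 193 FPKM in second telogen cKO and 184 FPKM in anagen II cells, against 7.24 to 17.6 FPKM in the other 5 groups. The cKO difference from WT, a log2 fold of 3.60 in the authors' deposited table, had an approximate SE of 15.1 and was not called (q = 0.707), and without values per library it cannot be seen whether 1 library set it. Foxm1, the forkhead factor of mitosis, shared a row with 4933413G19Rik and was not counted in the family. That row held 3.16 FPKM in second telogen iKO and 4.29 FPKM in cKO cells against 0.822 FPKM in WT cells, and 7.73 FPKM in anagen iKO against 2.50 FPKM in anagen Het cells.

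**Figure D4:**
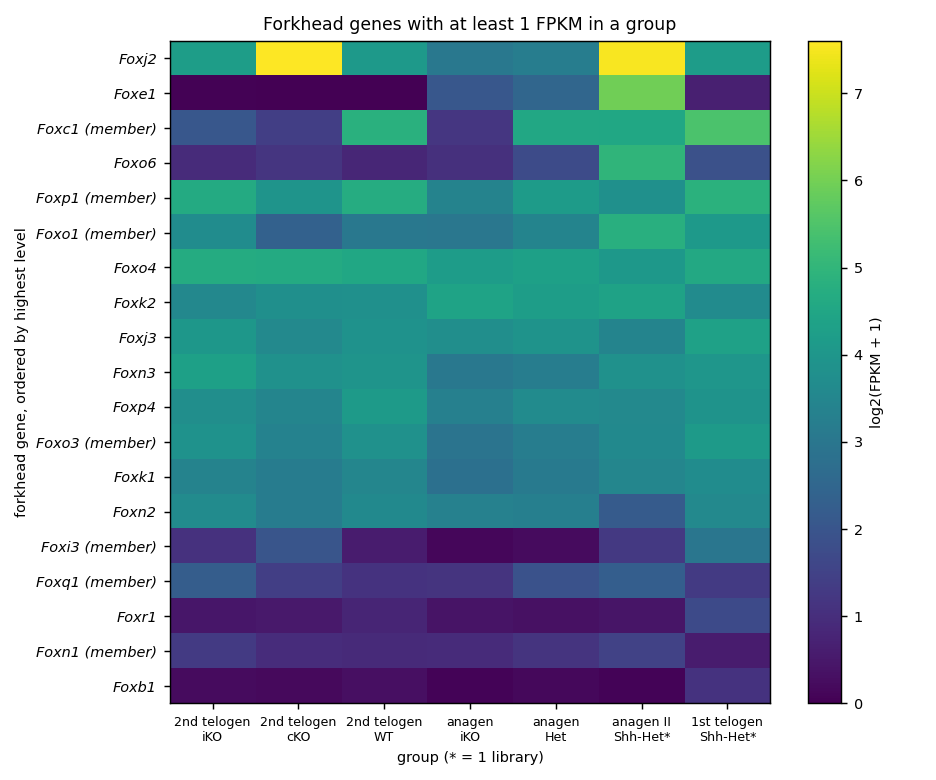
Colour map of log2(FPKM + 1) for the 19 forkhead genes with at least 1 FPKM in any group, 1 row per gene ordered by its highest level and 1 column per group. Foxc1 stands out as low in the 3 knockout columns, Foxe1 is bright in anagen II and dark in second telogen, and Foxj2 is bright in anagen II and second telogen cKO alone.

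FOXO activity depends on export from the nucleus as well as on transcript level, so genes known to respond to FOXO factors were counted beside Foxo1 and Foxo3. Of 50 listed, 45 could be tested. The list does not sort genes by whether FOXO factors raise or lower them, so a count of rises does not measure FOXO activity. It was also chosen with earlier results of these data known. In anagen iKO against Het cells 8 rose and 5 fell, where 5.18% of all genes were higher, and the list's median log2 ratio was -0.09, beside -0.02 for all genes. In cKO against WT cells 8 rose and 6 fell, where 3.75% of all genes were higher, and the median was 0.03, beside 0.00 for all genes. In second telogen iKO against WT cells 16 rose and none fell, where 7.02% of all genes were higher, and the median was 0.25, beside -0.02 for all genes. This count is from the joint table and the others from the 2-group tables, so they are not equally strict. For Foxo3 in cKO against WT cells, q was 0.274 in the 2-group table and 0.0478 in the joint table. Foxo1 was 1.65-fold higher in second telogen iKO than in WT cells. In that contrast driver, tamoxifen, age, strain and sex differ along with Foxc1 and cannot be told apart from its loss.

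Of the 8 that rose in anagen iKO and the 8 that rose in cKO cells, 6 in each were Ccnb1, Ccnb2, Ccnd1, Ccnd2, Plk1 and Plk4, genes of cell division. The mitotic cyclin gene Ccnb2 had 29.2 FPKM in anagen iKO and 8.12 FPKM in anagen Het cells, 3.59-fold higher in the authors' deposited table, and Ccnb1 and the mitotic kinase gene Plk1 were 3.84-fold and 3.16-fold higher. Ccnb2 in cKO against WT cells was 8.07-fold, Ccnb1 6.45-fold and the G1 cyclin gene Ccnd1 2.53-fold higher in the authors' deposited table. Among those that fell, Gadd45g, a stress sensor gene, had 15.9 FPKM in anagen iKO and 53.2 FPKM in anagen Het cells, and Trib1, a pseudokinase gene, had 9.03 FPKM in cKO and 22.1 FPKM in WT cells.

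The 16 genes that rose in second telogen iKO cells held 5 of those 6, without Ccnd1, and 11 others. Pdk4, a kinase gene that turns cells from glucose to fat oxidation and a classical FOXO target, had 3.46 FPKM in iKO and 0.568 FPKM in WT cells, 6.09-fold higher in the authors' deposited table. The pro-apoptotic gene Pmaip1 had 10.99 FPKM in iKO and 3.32 FPKM in WT cells, 3.31-fold higher in the authors' deposited table. These rises were not all particular to second telogen iKO cells. Of the 11, Pdk4 and Bnip3 were also called higher in cKO against WT cells, and Pmaip1 and Plk2 in anagen iKO against Het cells. Those calls are from the 2-group tables, and a gene without one there may have missed a stricter threshold. Leaving out Plk1, Plk4, Ccnb1, Ccnb2, Ccnd1 and Ccnd2, a choice made after the values were seen, 39 genes were left. Of these, 2 were higher and 5 lower in anagen, beside 5.18% of all genes higher and 5.08% lower, and 2 were higher and 6 lower in cKO cells, beside 3.75% and 2.87%. In second telogen iKO cells, counted in the joint table, 11 were higher and none lower, beside 7.02% and 5.89%. Set directly against cKO cells, iKO cells had 16 of 45 higher and 2 lower, with 7.54% of all genes higher. The cell cycle inhibitor gene Cdkn1a had 285 FPKM in iKO and 92.7 FPKM in cKO cells, 3.07-fold higher, and Trib1 was 2.83-fold higher in the authors' deposited table.

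**Figure D5:**
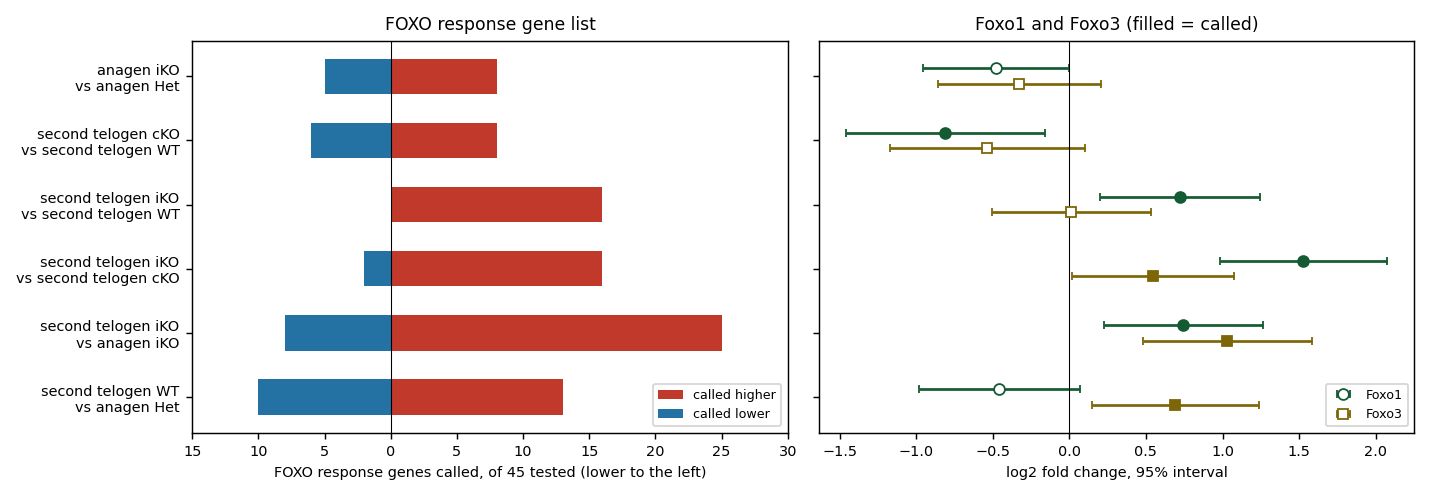
Left, numbers of FOXO response genes called higher (to the right of 0) and lower (to the left of 0) of 45 tested in 6 comparisons; right, log2 folds of Foxo1 and Foxo3 in the same comparisons with 95% intervals from the approximate SE, filled where called. Second telogen iKO against WT has 16 genes higher and none lower, and Foxo1 is above 0 there and below 0 in cKO against WT.

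Genes upstream of FOXO were counted in the same way. Of 38 regulators of FOXO, in the PI3K-AKT pathway or outside it, 2 rose and 1 fell in anagen iKO against Het cells, a share near the 10.3% of all genes called. Irs2, Insr and Sgk1 are also in the list of FOXO response genes. Pik3r1, the regulatory subunit of PI3-kinase, was 1.64-fold lower, Ywhah, a 14-3-3 protein that retains FOXO in the cytoplasm, 1.59-fold higher and Skp2, a ubiquitin ligase subunit, 1.77-fold higher in the authors' deposited table. In cKO against WT cells 3 fell and none rose, beside 6.62% of all genes called, which were the deacetylase gene Sirt1, the insulin receptor substrate gene Irs2 and the phosphoinositide phosphatase gene Inpp4b, 1.88-fold, 2.03-fold and 2.00-fold lower in the authors' deposited table. In second telogen iKO against WT cells 1 rose, Sirt1, with 32.5 FPKM in iKO and 21.3 FPKM in WT cells (1.52-fold in the authors' deposited table, q = 0.0142), beside 12.9% of all genes called. Between phases more were called: 15 rose and 5 fell in second telogen iKO against anagen iKO cells, beside 33.2% of all genes, and 12 rose and 2 fell in second telogen WT against anagen Het cells, beside 25.4%. The median log2 ratios of this list were -0.01, -0.19 and 0.08 in anagen iKO, cKO and second telogen iKO against their controls.

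Among 23 tested co-factors and partners of forkhead proteins, 1 rose and 4 fell in anagen iKO cells, where 10.3% of all genes were called. Ezh2, a histone methyltransferase, was 1.75-fold higher, and the co-repressor genes Ctbp2 and Tle2 were 1.56-fold and 1.57-fold lower in the authors' deposited table. In cKO against WT cells, where 6.62% of all genes were called, 1 fell, the co-repressor gene Tle4, with 11.4 FPKM in cKO and 20.2 FPKM in WT cells. Second telogen iKO against WT cells had 3 higher and none lower, near the 12.9% of all genes called, with Tle2 at 19.8 FPKM in iKO and 8.37 FPKM in WT cells, 2.36-fold higher in the authors' deposited table. The sources of difference between second telogen iKO and WT cells named above apply to Tle2 as well.

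Markers of other cells were counted for the same contrasts. Of 18 fibroblast and dermal papilla markers tested in anagen iKO against Het cells, 5 fell and none rose, where 5.08% of all genes fell, with sums of 175 FPKM in iKO and 325 FPKM in Het cells, and Col1a2, a collagen gene, 2.44-fold lower in the authors' deposited table. In cKO against WT cells 1 of 10 rose, beside 3.75% of all genes, Col1a1, 6.22-fold in the authors' deposited table, with sums of 275 FPKM in cKO and 319 FPKM in WT cells. Of 12 tested in second telogen iKO against WT cells 4 fell, where 5.89% of all genes fell, with sums of 216 FPKM in iKO and 332 FPKM in WT cells, and 2 of 20 listed at 0 in iKO and 1 in WT cells. Without the collagen VI genes Col6a1 and Col6a2, the sums were 49.9 FPKM in second telogen iKO and 49.4 FPKM in WT cells, 100.1 FPKM in cKO and 47.6 FPKM in WT cells, and 92.9 FPKM in anagen iKO and 148 FPKM in Het cells. The fibroblast genes Col3a1, Dcn, Lum and Pdgfra were all below 0.5 FPKM in second telogen iKO, cKO and WT cells. Other genes of the list were higher there. Col1a2 stood at 8.09 FPKM in iKO, 10.8 FPKM in cKO and 12.4 FPKM in WT cells. In the same order, Col1a1 stood at 4.45, 62.9 and 10.1 FPKM and Vim at 20.4, 15.6 and 14.1 FPKM. Immune markers summed to 141 FPKM in second telogen iKO, 114 FPKM in second telogen cKO and 106 FPKM in second telogen WT cells, and 2 of 9 rose in iKO against WT cells, beside 7.02% of all genes. Bulge markers had 3 of 13 lower in anagen iKO cells, beside 5.08% of all genes, including Cd34 at 244 FPKM in iKO and 432 FPKM in Het cells, and none of 13 called in cKO against WT cells by the authors' Cuffdiff test, where 4 had an unadjusted p below 0.05. 

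The remaining marker lists also held calls. Of 15 epidermal and sebaceous markers tested in second telogen iKO against WT cells, 4 rose (Elovl3, Plin2, Pparg and Scd1) and 3 fell (Lor, Sbsn and Scd3), with sums of 4512 FPKM in iKO and 4831 FPKM in WT cells. Of 5 endothelial and pericyte markers tested there, 2 rose (Flt1 and Lyve1) and 2 fell (Cspg4 and Tek). Their list summed to 44.4 FPKM in iKO and 80.4 FPKM in WT cells, of which Cspg4 alone held 36.8 FPKM in iKO and 74.2 FPKM in WT cells. Of 10 melanocyte markers 2 rose (Dct and Tyrp1) and 1 fell (Mitf), with sums of 40.3 FPKM in iKO and 51.2 FPKM in WT cells. Mitf alone held 17.2 FPKM in iKO and 38.5 FPKM in WT cells of these sums. The share of all genes called in that contrast was 12.9%. In anagen iKO against Het cells, where 10.3% of all genes were called, 2 of 14 epidermal markers rose, 2 of 10 melanocyte markers fell, and 2 of 13 endothelial markers rose and 2 fell. Mitf, the melanocyte master regulator gene, had 2.15 FPKM in anagen iKO and 7.21 FPKM in anagen Het cells, 3.35-fold lower in the authors' deposited table. In cKO against WT cells, where 6.62% of all genes were called, 1 of 15 epidermal markers rose and 2 fell, 1 of 8 endothelial markers rose and 1 of 7 melanocyte markers fell. The part of all these cells in the forkhead values was not tested.

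Genes whose profile was most like a forkhead gene's were ranked by Pearson's r of log2(FPKM + 1) over the 7 groups, among 4564 genes with at least 5 FPKM in a group and a range of at least 1 on that scale. These are descriptions over 7 points, of which 2 are single libraries. Foxc1 was most like Fzd9, a WNT receptor gene (r = 0.981), then Igfbp5 (0.950), Mark4, Gadd45g and Mir3102 (0.907 to 0.908). Over the 5 groups with 2 libraries r was 0.994 for Fzd9 and 0.984 for Igfbp5. Fzd9 had 0.495 FPKM in second telogen iKO and 0.264 FPKM in second telogen cKO cells, against 7.73 FPKM in second telogen WT cells, and 0.139 FPKM in anagen iKO against 5.16 FPKM in anagen Het cells.

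Foxp1 was most like Ednra, an endothelin receptor gene (r = 0.981), followed by Zdhhc2, Serpina3b, Tenc1 and Usp2. Foxo1 was most like Tcf7l2, a WNT effector gene (r = 0.970), followed by Gnaq, Mfhas1, Spred2 and Usp46, and for Tcf7l2 r was 0.983 over the 5 groups with 2 libraries. Foxo3 was most like Cmip (r = 0.980), then Auts2, Rnd1, Mef2d and Wasf2. Foxi3 was most like Btbd19 (r = 0.993), then Lama4, C1qtnf1, Cdh11 and Gm11747, and its r with Btbd19 was 0.986 without the single libraries. The other 3 genes did not reach 5 FPKM in any group and were not ranked.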

How the data were processed

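The values are FPKM per gene in 3 tables that the authors deposited, with 1 pooled value per group: a 2-group table for anagen, one for second telogen cKO and WT, and a joint table of 21 pairs among 7 groups. Each table also holds the log2 fold change, a test score (the statistic), the p-value and the q-value, all deposited by the authors. TopHat, Cufflinks and Cuffdiff and build mm9 are named per the submitters' processing notes; versions, annotation and settings, among them strand, are not given in the sources used here, so antisense or overlapping transcripts cannot be told apart from a gene's own. RNA was lysed in Trizol-LS, extracted with a DirectZol kit and made into libraries with Illumina TruSeq mRNA kits, per the labels' protocols. No counts were used and the depth is unknown, so no counting interval can be given.

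Groups came from the labels. The approximate SE is the deposited log2 fold divided by the deposited score, and 95% intervals follow from it; Cuffdiff's p-values do not always follow the score, and the smallest is 5e-05. Calls needed a usable status and q below 0.05; in the joint table the authors adjusted q over all pairs. Of symbols on several rows (160) the row with the highest mean was used. Differences of knockout effects were tested by z with Benjamini-Hochberg adjustment. This step was run on simulated folds drawn with the same approximate SEs, which cannot show whether those SEs hold with 2 libraries in a group. A list's median uses a pseudocount of 1. Python 3.11.15, pandas 2.3.3, numpy 2.4.6, scipy 1.17.1 and matplotlib 3.10.9 were used.

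The members and the 10 gene lists were chosen with earlier results of these data known. Named were all 8 members; other forkhead genes with at least 1 FPKM called in any of 6 comparisons; up to 4 called genes per list by lowest p in each 2-group comparison, of which 1 is not reported here; and the 5 genes most like each member with at least 5 FPKM. Genes named in the joint comparisons follow the same list rule, added after the data were seen. Krt15, Krt5, Foxf2, Foxm1, Bnip3, Plk2 and the markers of the bulge that are given as ranges were named after their values were seen. So were the genes listed for epidermal, endothelial, pericyte and melanocyte markers and the fibroblast genes given by level in second telogen. Marker sums without Krt79, and without Col6a1 and Col6a2, were added after the data were seen.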

Additional observations from a re-analysis of the deposited data

How the results depend on the processing

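With 1 pooled value per group, neither depth nor the spread between mice can be read. No paired analysis was possible because the deposited values are pooled per group and carry no replicate, and for the same reason no library could be left out in turn. Alternatives were a q below 0.01, a minimum of 1 FPKM in both groups, the lowest row of a repeated symbol, pseudocounts of 1 and 5, centring on the median, the joint table, and p adjusted within a comparison; those for single genes, other than Foxc1 in anagen iKO against Het and in cKO against WT cells, were added after the data were seen. Of 35 values that answer a comparison, 34 kept their side or stayed within 1.5 times. The exception was the count in second telogen cKO against WT cells, where 1 of the 4 genes, Foxc1, was called at a q below 0.01. Of the single-gene values added, 267 under a pseudocount or centring have no call of their own and kept their direction. Of 89 with a call (joint table or p adjusted within the comparison), 87 kept direction and call. Foxo3 in cKO against WT cells was called in the joint table (log2 fold -0.53, q = 0.0478) but not in the 2-group table, and in second telogen iKO against cKO cells (log2 fold 0.55) it was no longer called with p adjusted within the comparison (q = 0.0769). None reversed. Median log2 folds over all genes lay within 0.06 of 0.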
